A study of Mus musculus with 12 samples.

Results

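The genes described here encode red cell surface antigens and transporters: Rhag, Rhd, Kel, Xk, Cd47, Ermap, Aqp1, Slc2a1 and Slc6a9. They are the 9 genes named for this set, of 30702 genes measured by at least 1 array feature that names a single gene, and all 9 were among the 20128 genes bright enough to be tested. A wider list of 62 surface and transport genes, among them Gypc, is described after them.

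The arrays measured total RNA of erythroblasts sorted from the spleens of male mice, all given phenylhydrazine, which lyses red cells and so sets off stress erythropoiesis in the spleen, and sorted on day 3 after it. For 3 months before, the mice ate a diet adequate or deficient in selenium. From each diet, proerythroblasts (the earlier stage) and basophilic erythroblasts (the next stage) were sorted, which gave 4 groups of 3 arrays, 12 in all. Mouse strain and the number of animals per array are not given in the sources used here, so p-values measure the spread between these samples, which may be technical. The cells are bulk sorts, in which fewer cells of a type and less RNA per cell cannot be told apart.

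As background, the Rh-associated glycoprotein Rhag is an ammonia channel and the core of a membrane complex with the Rh protein Rhd, and Cd47, the "do not eat me" ligand of SIRP alpha on macrophages, sits in the same complex. Kel, the Kell blood group protein, is an endopeptidase held to Xk by a disulfide bond. Xk is a membrane protein related to lipid scramblases, and its loss in humans gives acanthocytic red cells. Ermap carries the Scianna blood group and resembles butyrophilins. Aqp1 is the water channel of red cells (Colton blood group), Slc2a1 the glucose transporter GLUT1, and Slc6a9 the glycine transporter GlyT1, which brings in the amino acid that the first enzyme of heme synthesis uses. Several of these genes are held to be targets of GATA1 and KLF1, and adult mouse red cells, unlike human ones, carry little GLUT1.

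All values are log2 expression, so a difference of 1 is a 2-fold change. A gene was called when its Benjamini-Hochberg adjusted p in limma, over all genes tested, was under 0.05. On the adequate diet 5 of the 9 genes rose from proerythroblasts to basophilic erythroblasts: Slc6a9, Kel, Rhd, Rhag and Cd47. In proerythroblasts the deficient diet raised Slc6a9 by 1.70, or 3.26-fold, and the other 8 genes did not pass, although all 9 differences were above 0. None of the 9 passed for the diet in basophilic erythroblasts or for the stage on the deficient diet. The second count changed when 1 array was left out (2 passed without deficient basophilic replicate 2) and under quantile normalization. The share of all tested genes called higher was 28.7% for the stage effect on the adequate diet, 31.1% for the stage effect on the deficient diet and 1.27% for the diet effect in proerythroblasts. For the diet effect in basophilic erythroblasts 0.0199% were called in either direction.

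**Figure D1:**
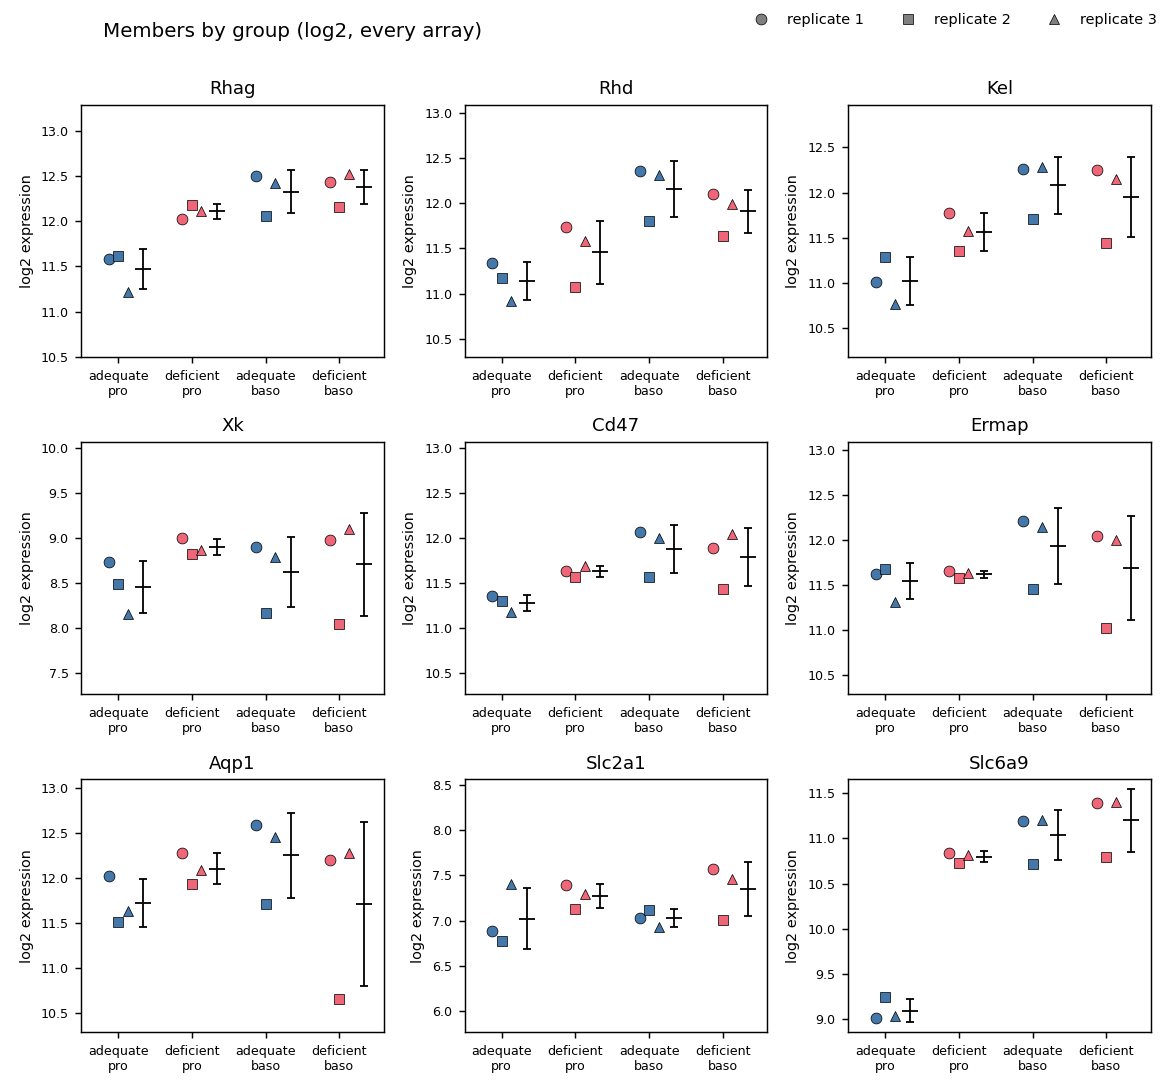
Log2 expression of each gene (vertical axis, the same span in every panel) in the 12 arrays; circles, squares and triangles are replicates 1, 2 and 3, blue is the adequate and red the deficient diet, and the bars give the mean and SD (n = 3). The adequate proerythroblast arrays of Slc6a9 lie at 9.01 to 9.24, below the 9 other arrays (10.72 to 11.41), and replicate 2 is the lowest basophilic array in most panels.

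The basophilic arrays were not of one quality. Replicate 2 of both diets had a higher median signal of the GC background features, 4.19 (adequate) and 4.70 (deficient), than the 10 other arrays, at 3.31 to 3.80. The 9 genes moved with it: deficient basophilic replicate 2 was the lowest of its group for 9 of 9, against 39.0% of all tested genes and 78.2% of the 10% of tested genes with the highest mean level. Adequate basophilic replicate 2 was lowest for 8 of 9, against 41.4% and 78.9%. Among proerythroblasts, deficient replicate 2 was lowest for 8 of 9 (against 42.6% and 73.5%) and adequate replicate 3 for 6 of 9 (against 38.2% and 48.4%). One label conflicts with itself: deficient basophilic replicate 3 is described as proerythroblasts in 1 field, and it was kept as basophilic by its title and cell type label. Its correlation over all features was 0.986 with deficient basophilic replicate 1, 0.91 with deficient basophilic replicate 2 and 0.962 to 0.969 with the deficient proerythroblasts, so it was closer to these than to its second group mate. Results that rest on the basophilic arrays are therefore also given without replicate 2 of both diets, a choice made after the data had been seen, which leaves 2 arrays in each basophilic group.

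Slc6a9, the glycine transporter gene, had the widest range of group means in the set (2.10). In adequate proerythroblasts its 3 arrays read 9.01, 9.24 and 9.03. In deficient proerythroblasts they read 10.84, 10.73 and 10.82, all far above. The basophilic arrays read 11.19, 10.72 and 11.21 on the adequate diet and 11.39, 10.79 and 11.41 on the deficient diet. Adequate proerythroblasts thus stood alone at the bottom, and the arrays of the 3 other groups overlapped their neighbours in order of mean.

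The diet difference of Slc6a9 in proerythroblasts was 1.70 (SE 0.19, 95% confidence interval 1.3 to 2.11, adjusted p = 8.47e-04). It passed in every alternative run, with adjusted p from 1.63e-05 to 0.0245. In basophilic erythroblasts the difference was 0.16 (interval -0.25 to 0.56, adjusted p = 0.954). From proerythroblasts to basophilic erythroblasts Slc6a9 rose by 1.95 (SE 0.19, adjusted p = 1.46e-05) on the adequate diet. On the deficient diet it was higher by 0.40 (interval -0.01 to 0.81, adjusted p = 0.0833), a value that became 0.60 (adjusted p = 8.40e-04) without the basophilic arrays that stood apart. The mean of the diet differences in the 2 stages, 1.70 and 0.16, was 0.93 (SE 0.13, adjusted p = 0.00510), where 0.954% of all tested genes were called higher. This mean does not show a rise in basophilic erythroblasts. The comparisons share arrays: adequate proerythroblasts enter both the diet effect in proerythroblasts and the stage effect on the adequate diet.

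The diet effect on Slc6a9 differed between the stages by -1.55 (SE 0.26, adjusted p = 0.0433), where 0.144% of all tested genes were called lower for this interaction. Over the alternatives the adjusted p ran from 0.00299 to 0.733. Leaving out 1 array ended the call for 10 of the 12 arrays (adjusted p up to 0.156), the exceptions being replicate 2 of each basophilic group. It also ended without the filter on dim genes (0.0501) and with the mean of the 2 features of the gene (0.335).

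The 2 array features of Slc6a9 had a like order in proerythroblasts and differed in spread. The dimmer feature read 6.03, 6.83 and 6.34 in adequate and 9.48, 9.12 and 8.75 in deficient proerythroblasts, a difference of 2.72 (SE 0.59, adjusted p = 0.0245) with no overlap. In basophilic erythroblasts it read 8.83, 7.23 and 8.35 on the adequate and 10.34, 7.78 and 10.10 on the deficient diet, and replicate 2 was the lowest in both. Its diet difference there, 1.27 (SE 0.59, adjusted p = 0.765), did not pass, nor did its interaction (-1.45, adjusted p = 0.733). Its stage effect on the adequate diet was 1.74 (adjusted p = 0.0301). The diet call in proerythroblasts and the stage call on the adequate diet were thus made with either feature.

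**Figure D2:**
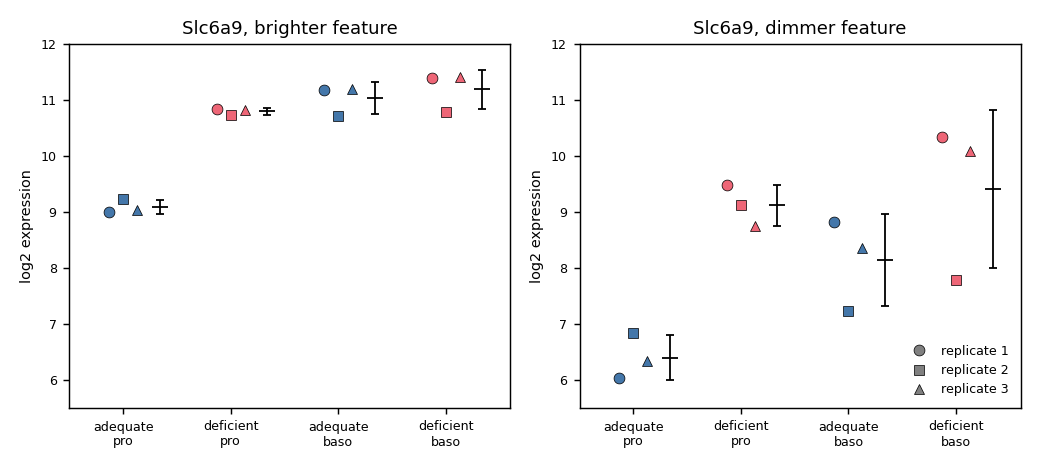
Log2 expression (vertical axis) of the 2 array features of Slc6a9 in the 4 groups; markers are replicates as keyed, blue is the adequate and red the deficient diet, bars give the mean and SD (n = 3). Both features are lowest in adequate proerythroblasts, and basophilic replicate 2 lies lowest in its group in both, by a wider margin on the dimmer feature.

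Of the Rh complex, Rhag came nearest to a diet call. Its arrays read 11.58, 11.62 and 11.22 in adequate and 12.03, 12.18 and 12.11 in deficient proerythroblasts, with no overlap. The difference was 0.63 (SE 0.16, interval 0.28 to 0.99) with an adjusted p of 0.0528. Same-numbered arrays of the 2 diets deviated together within each stage, and with a replicate block within each stage, a paired fit chosen after the data had been seen, the adjusted p was 0.00942. It also passed without adequate (0.0358) or deficient (0.0181) basophilic replicate 2, without both (0.00505), with the 6 proerythroblast arrays alone (0.0216), under quantile normalization (0.0328) and with a stricter filter (0.0495). In 14 of the 21 alternatives, however, Rhag did not pass. Over all alternatives adjusted p ranged from 0.00505 to 0.181, the highest being without deficient proerythroblast replicate 2. The fits without basophilic arrays use the same proerythroblast values of Rhag. What differs is the shared error and the adjustment over all genes.

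In basophilic erythroblasts Rhag read 12.50, 12.06 and 12.43 on the adequate and 12.44, 12.16 and 12.53 on the deficient diet, and the diets overlapped (0.05, interval -0.31 to 0.40). Rhag rose with stage by 0.86 (SE 0.16, adjusted p = 0.00169) on the adequate diet, where all basophilic arrays lay above all proerythroblast arrays. On the deficient diet the stage difference was 0.27 (interval -0.09 to 0.63, adjusted p = 0.166). Without the basophilic arrays that stood apart it was 0.38 (adjusted p = 0.0236), and under quantile normalization 0.44 (adjusted p = 0.0313). Over both stages its diet difference was 0.34 (adjusted p = 0.176, 0.0312 with the replicate block within each stage, 0.0389 without the basophilic arrays that stood apart, and 0.39 with an adjusted p of 0.0468 without deficient basophilic replicate 2 alone). In 17 of the 20 alternatives the difference over both stages did not pass. The interaction of Rhag, -0.59 (interval -1.09 to -0.08, adjusted p = 0.408), did not pass.

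Rhd, the partner of Rhag, read 11.34, 11.17 and 10.92 in adequate and 11.74, 11.07 and 11.58 in deficient proerythroblasts. The diets overlapped because deficient replicate 2 lay below 2 of the adequate arrays, and the difference was 0.32 (interval -0.15 to 0.79, adjusted p = 0.667). The basophilic arrays read 12.36, 11.80 and 12.32 on the adequate and 12.10, 11.64 and 11.99 on the deficient diet. Rhd rose with stage by 1.02 (SE 0.22, adjusted p = 0.00343) on the adequate diet, or 2.02-fold. On the deficient diet the stage difference was 0.45 (interval -0.02 to 0.92, adjusted p = 0.0924). With the replicate number as a block the adjusted p was 0.0296, but the numbers were not taken as pairs between stages. Without the basophilic arrays that stood apart this stage difference was 0.58 (adjusted p = 0.025), and under quantile normalization 0.62 (adjusted p = 0.0261). In basophilic erythroblasts the diet difference of Rhd was -0.25 (interval -0.72 to 0.22).

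Cd47, the brake on macrophage uptake, read 11.36, 11.30 and 11.18 in adequate and 11.63, 11.57 and 11.69 in deficient proerythroblasts. The groups did not overlap, and the difference of 0.35 (SE 0.18, interval -0.03 to 0.73) had an adjusted p of 0.428. In basophilic erythroblasts it read 12.07, 11.57 and 12 on the adequate and 11.89, 11.43 and 12.04 on the deficient diet, which overlapped (-0.09). On the adequate diet Cd47 rose with stage by 0.60 (SE 0.18, adjusted p = 0.0174). That call ended without adequate basophilic replicate 1 (0.0513) or 3 (0.0554) or adequate proerythroblast replicate 3 (0.0530), with adjusted p from 9.75e-05 to 0.0554 over the alternatives. On the deficient diet the stage difference was 0.16 (interval -0.23 to 0.54). Without the basophilic arrays that stood apart it was 0.33 (adjusted p = 0.00959), and under quantile normalization 0.34 (adjusted p = 0.0502).

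Kel, whose protein is bonded to Xk, read 11.01, 11.29 and 10.76 in adequate and 11.77, 11.35 and 11.57 in deficient proerythroblasts, then 12.26, 11.71 and 12.28 in adequate and 12.25, 11.44 and 12.15 in deficient basophilic erythroblasts. It rose with stage by 1.06 (SE 0.24, adjusted p = 0.00481) on the adequate diet, or 2.09-fold. On the deficient diet the stage difference was 0.38 (interval -0.14 to 0.90, adjusted p = 0.179). Without the basophilic arrays that stood apart it was 0.64 (adjusted p = 0.0086), and under quantile normalization 0.58 (adjusted p = 0.0349). The diet difference in proerythroblasts was 0.54 (SE 0.24, interval 0.02 to 1.06, adjusted p = 0.324), with all deficient above all adequate arrays, and in basophilic erythroblasts it was -0.14 (interval -0.66 to 0.38).

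Xk read 8.74, 8.49 and 8.16 in adequate and 9.0, 8.82 and 8.87 in deficient proerythroblasts, a difference of 0.43 (interval -0.17 to 1.03, adjusted p = 0.619) with no overlap. In basophilic erythroblasts it read 8.90, 8.17 and 8.79 on the adequate and 8.98, 8.05 and 9.10 on the deficient diet, so replicate 2 of both diets lay below every deficient proerythroblast array. Its stage difference was 0.16 (interval -0.44 to 0.76) on the adequate and -0.19 (interval -0.79 to 0.41) on the deficient diet. Without adequate basophilic replicate 2 the first value was 0.38 (adjusted p = 0.283), and without replicate 2 of both diets Xk passed with the same value (adjusted p = 0.0452). The sign of the second value turned under quantile normalization (0.19) and without the basophilic arrays that stood apart (0.14). Xk had its highest group mean in deficient proerythroblasts (8.90), which no other gene of the 9 did, and all neighbouring groups in the order of its means overlapped.

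Ermap had the smallest diet difference in proerythroblasts of the 9. It read 11.62, 11.68 and 11.31 on the adequate and 11.66, 11.58 and 11.63 on the deficient diet, a difference of 0.09 (interval -0.50 to 0.68, adjusted p = 0.998). In basophilic erythroblasts it read 12.21, 11.45 and 12.14 on the adequate and 12.04, 11.02 and 12 on the deficient diet. Replicate 2 lay among the proerythroblast arrays on the adequate diet and below all of them on the deficient diet, and the stage differences of 0.40 (interval -0.19 to 0.99) and 0.06 (interval -0.53 to 0.65) on the adequate and deficient diet did not pass. Without the basophilic arrays that stood apart they were 0.64 (adjusted p = 9.32e-04) and 0.40 (adjusted p = 0.0126).

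Aqp1, the water channel gene, had the widest spread within a group. It read 12.02, 11.51 and 11.63 in adequate and 12.27, 11.93 and 12.09 in deficient proerythroblasts, which overlapped (0.38, interval -0.44 to 1.20). Its basophilic arrays read 12.59, 11.71 and 12.45 on the adequate and 12.20, 10.66 and 12.27 on the deficient diet. The deficient replicate 2 lay below every other array of the study, and with it the diet difference in basophilic erythroblasts was -0.54 (interval -1.36 to 0.28, adjusted p = 0.954). Without that array it was -0.02, and without replicate 2 of both diets -0.28 (adjusted p = 0.534). The stage difference was 0.53 (adjusted p = 0.238) on the adequate and -0.39 (adjusted p = 0.383) on the deficient diet. Without the basophilic arrays that stood apart these were 0.80 (adjusted p = 0.00170) and 0.14 (adjusted p = 0.456).

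Slc2a1, the GLUT1 gene, was the lowest of the 9 in rank, with 74.8% of measured genes below its mean, where the other 8 had 90.5% to 99.5% below theirs. These ranks compare features of different design and are only a coarse guide to level. Slc2a1 read 6.88, 6.77 and 7.41 in adequate and 7.39, 7.13 and 7.29 in deficient proerythroblasts. Basophilic erythroblasts read 7.03, 7.12 and 6.93 on the adequate and 7.57, 7.01 and 7.46 on the deficient diet. The groups overlapped in every comparison of diets within a stage and of stages within a diet. The diet differences were 0.25 (interval -0.16 to 0.66) and 0.32 (interval -0.09 to 0.73) in proerythroblasts and basophilic erythroblasts, and the stage differences 0.01 (interval -0.41 to 0.42) and 0.08 (interval -0.34 to 0.49) on the adequate and deficient diet. Deficient proerythroblasts (7.13 to 7.39) lay just above adequate basophilic erythroblasts (6.93 to 7.12), the only neighbours in its order of means that did not overlap. None of the fits run called it.

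**Figure D3:**
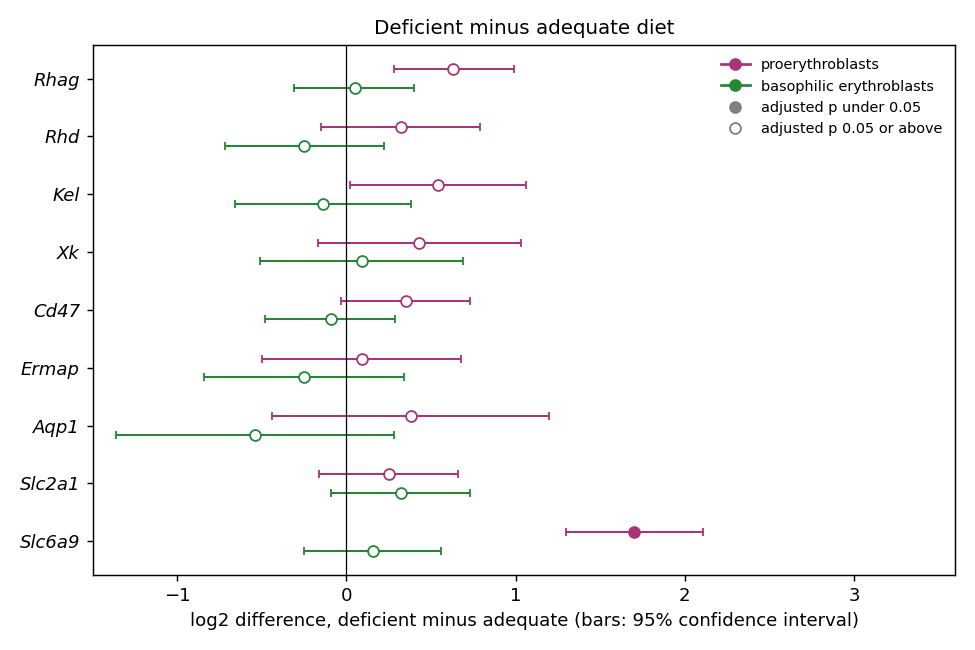
Log2 difference between the diets (deficient minus adequate, horizontal axis) for the 9 genes in proerythroblasts (purple) and basophilic erythroblasts (green), with 95% confidence intervals from limma; filled points have an adjusted p under 0.05. All 9 proerythroblast points lie right of 0, Slc6a9 at 1.70 is the only filled one, and the basophilic points lie between -0.54 and 0.32.

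Across the 9 genes the median diet difference was 0.38 in proerythroblasts, beside 0.02 over all genes tested, and -0.09 in basophilic erythroblasts, beside 0.04. In proerythroblasts 5 of 9 genes (Slc6a9, Rhag, Kel, Xk and Cd47) had all deficient above all adequate arrays, where 15.5% of all tested genes did. In basophilic erythroblasts no gene of the 9 was free of overlap (8.04% of all tested genes were), 0 of 9 passed in limma and 0 of 9 had an unadjusted p under 0.05, where 1305 of 20128 genes did. The interaction was below 0 for 8 of 9 genes, with a median of -0.57 beside 0.03 over all genes, and only Slc6a9 passed. Without the basophilic arrays that stood apart 4 of 9 genes were called higher in deficient proerythroblasts, Slc6a9, Rhag (adjusted p = 0.00505), Cd47 (0.0151) and Kel (0.0313), where 6.97% of all tested genes were. The proerythroblast arrays are the same in that fit, and what differs is the shared error and the adjustment over all genes. Over all genes the interaction calls were 32 higher and 29 lower, 7 and 16 under quantile normalization, and 21 and 33 under median centring.

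The stage medians were 0.60 on the adequate diet, beside 0.12 over all genes, and 0.16 on the deficient diet, beside 0.08. On the adequate diet 5 of 9 genes had all basophilic above all proerythroblast arrays (41.4% of all tested genes did), and on the deficient diet none did (36.9%). Of the 9 genes, 0 passed on the deficient diet in limma and 0 had an unadjusted p under 0.05, where 12826 of 20128 genes did. This count changed with 1 array and with the processing. Without deficient basophilic replicate 2 Kel (0.64, adjusted p = 0.0308) and Slc6a9 (0.60, adjusted p = 0.0125) passed, where 21.8% of all tested genes were called higher. Without replicate 2 of both diets, 6 of 9 rose on the deficient diet (Slc6a9, Kel, Cd47, Ermap, Rhag and Rhd, by 0.33 to 0.64), where 32.1% of all tested genes did, and 8 of 9 on the adequate diet, all but Slc2a1, where 38.9% did. Quantile normalization called 4 of 9 on the deficient diet, where 22.2% of all tested genes were called higher. It also turned the balance of all calls on the adequate diet, from 5767 higher and 5143 lower to 2375 higher and 4174 lower, and there it kept the calls of Slc6a9, Kel, Rhd, Rhag and Cd47.

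**Figure D4:**
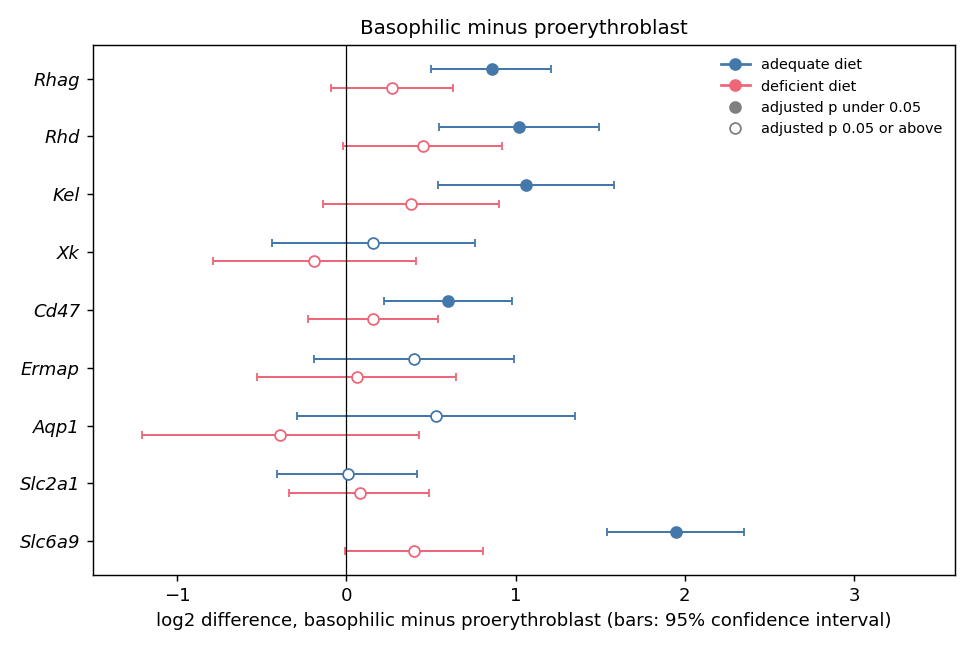
Log2 difference between the stages (basophilic minus proerythroblast, horizontal axis) for the 9 genes on the adequate (blue) and the deficient (red) diet, with 95% confidence intervals from limma; filled points have an adjusted p under 0.05. On the adequate diet Slc6a9, Kel, Rhd, Rhag and Cd47 are filled at 0.60 to 1.95, and on the deficient diet no point is filled and the values run from -0.39 to 0.45.

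The sequences before the transcription starts of 4 of the 5 genes that rose together with stage on the adequate diet are shown because erythroid promoters are known for binding sites of GATA1 and KLF1. They are the 250 bases upstream of the start, from RefSeq on GRCm38.p6, where all 9 genes were matched with 12 starts in all. Capitals mark matches on either strand to AGATAA, a motif of GATA factors, or to its variant TGATAA, which was added after the sequences had been seen. They also mark CCNCNCCC, a motif of KLF1 and related factors. Rhag lies at chr17:40810899-40811148 on the plus strand, Rhd at chr4:134864286-134864535 on the plus strand, Kel at chr6:41704326-41704575 on the minus strand, and the first of 3 starts of Slc6a9 at chr4:117835008-117835257 on the plus strand.
Rhag: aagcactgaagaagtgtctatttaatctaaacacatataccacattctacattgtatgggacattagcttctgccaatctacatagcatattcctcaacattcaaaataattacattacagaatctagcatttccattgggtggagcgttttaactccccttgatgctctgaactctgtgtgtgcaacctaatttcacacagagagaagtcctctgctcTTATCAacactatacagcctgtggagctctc
Rhd: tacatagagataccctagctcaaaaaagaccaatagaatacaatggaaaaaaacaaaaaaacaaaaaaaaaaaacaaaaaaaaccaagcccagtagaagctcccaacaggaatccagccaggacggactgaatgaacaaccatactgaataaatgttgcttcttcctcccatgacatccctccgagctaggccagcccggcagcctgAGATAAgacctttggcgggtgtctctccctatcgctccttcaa
Kel: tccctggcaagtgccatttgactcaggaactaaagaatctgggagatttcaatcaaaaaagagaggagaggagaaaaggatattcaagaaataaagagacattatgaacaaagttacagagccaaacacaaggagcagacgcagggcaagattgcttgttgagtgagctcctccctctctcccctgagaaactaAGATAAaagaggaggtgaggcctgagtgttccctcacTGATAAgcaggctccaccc
Slc6a9: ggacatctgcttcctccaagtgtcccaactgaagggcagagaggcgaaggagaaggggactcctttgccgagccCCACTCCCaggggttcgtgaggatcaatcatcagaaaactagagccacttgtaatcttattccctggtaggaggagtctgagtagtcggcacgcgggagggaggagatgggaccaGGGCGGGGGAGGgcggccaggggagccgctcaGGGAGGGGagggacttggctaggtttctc

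Rhag held 1 TGATAA, Rhd 1 AGATAA and Kel 1 of each, with none of CCNCNCCC in these 3 windows, and Slc6a9 held 4 matches to CCNCNCCC, which overlap in part, and no GATA match. Counting the base before the start as -1, the last base of the GATA match nearest the start was at -26 in Rhag, -38 in Rhd and -14 in Kel. Of the 12 windows of the set, 4 held AGATAA or TGATAA (33.3%), the fourth being that of Ermap, against 16.6% of all 32851 windows. AGATAA alone was in 2 of the 12 (16.7%), against 3281 of the 32851. Because TGATAA was added after these sequences had been seen, the share with either motif is no test of a difference. CCNCNCCC was in 6 of 12 (against 45.9%), and the E box CANNTG in 3 of 12 (against 66.2%). Cd47, the fifth gene that rose with stage on the adequate diet, is not shown: both of its windows held 0 matches to AGATAA, 0 to TGATAA and 0 to CCNCNCCC. A match is a description of letters and not of a bound site.

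Over the 12 arrays the correlations between the 9 genes ran from 0.09 to 0.96. Pearson r between Rhag and Slc6a9 was 0.96, between Kel and Cd47 0.95, and between Rhd and Kel 0.94, and Rhag, Rhd, Kel, Cd47 and Slc6a9 had 0.78 to 0.96 among themselves. Xk, Ermap and Aqp1 had 0.78 to 0.88 among themselves, and 0.38 (Aqp1 with Slc6a9) to 0.82 (Ermap with Cd47) with the former 5. Kel and Xk had r = 0.57. For Slc2a1, r with the other 8 lay between 0.09 and 0.39. These are descriptions over arrays that share group and array quality. Among 14517 named tested genes, those most like Slc6a9 were Cpeb4 (r = 0.994), Bmp2k (0.982) and Uba7 (0.981). Those most like Rhag were Ank1 (0.983), the ankyrin of the red cell skeleton, Tspan33 (0.978) and Atg9a (0.974). For Kel they were Pigq (0.988), Ppox (0.988), an enzyme of heme synthesis, and Pip5k1b (0.985). For Rhd they were Ube2s (0.974), Ubac1 (0.965) and Pigq (0.962), and for Cd47 Iba57 (0.983), Pik3r1 (0.981) and Btnl10 (0.979).

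The remaining members had other neighbours. Ermap was most like Mfsd2b (0.982), the erythroid exporter of sphingosine 1-phosphate, the urea transporter gene Slc14a1 (0.968) and Gata1 (0.967), the main erythroid transcription factor. Aqp1 was most like Kif14 (0.977), Cenpl (0.977) and Kif23 (0.977), genes of mitosis. Xk was most like Map3k20 (0.964), Abcb6 (0.951) and Cecr2 (0.946), and Slc2a1 like Arid3b (0.868), Eps8 (0.859) and Ccl6 (0.829).

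A wider list of surface and transport genes, of which 56 of 62 were tested, gives the setting. In proerythroblasts 6 of 56 rose on the deficient diet and 3 fell (4.02% of all tested genes were called in either direction), with a median difference of 0.11. The anion exchanger gene Slc4a1 rose by 1.39 (SE 0.13, adjusted p = 2.55e-04). Cd59a, which guards against complement, rose by 1.27 (adjusted p = 0.00235), and Art4, the Dombrock blood group protein, by 1.45 (adjusted p = 0.0140). The zinc importer gene Slc39a10 fell by 1.20 (adjusted p = 0.00549). Gypc had 1.36 (adjusted p = 0.117) with all deficient above all adequate arrays. The count of 9 was 3 without adequate proerythroblast replicate 1 (1.56% of all tested genes were called) or deficient proerythroblast replicate 3 (1.6%). It was 4 or 5 without each of adequate replicates 2 and 3 and deficient replicate 2 (1.69%, 2.8% and 2.26%). It was 16 without deficient basophilic replicate 2 (8.97%) and 22 when both apart-standing basophilic arrays were left out (16.3%). With the proerythroblast arrays alone it was 19 (12%), and with the replicate block within each stage 24 (11.1%). The share over all tested genes thus fell and rose in the same fits.

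In basophilic erythroblasts 0 of the 56 passed for the diet in limma, where 0.0199% of all tested genes were called. An unadjusted p under 0.05 was reached by 7 of the 56, where 1305 of 20128 genes reached it. For the mean over both stages Slc4a1 (0.71), Cd59a (0.78) and the glycerol and water channel gene Aqp3 (0.71) were called higher. Slc39a10 (-0.62) and the second transferrin receptor gene Tfr2 (-0.65) were called lower, against 2.56% of all tested genes in either direction. In basophilic erythroblasts alone these 5 had 0.02, 0.3, 0.74, -0.03 and -0.36, none past the threshold. Leaving out 1 array gave 2 to 14 calls in place of these 5, with 14 without deficient basophilic replicate 2 and 2 without adequate basophilic replicate 1 or 3, adequate proerythroblast replicate 1 or 2, deficient basophilic replicate 3 or deficient proerythroblast replicate 2 or 3. With the replicate block within each stage there were 19, where 10.2% of all tested genes were called. Without deficient basophilic replicate 2 that share was 7.47%. For the interaction 1 of 56 passed, Slc4a1 (-1.37, adjusted p = 0.0130), where 0.303% of all tested genes were called. That call ended without adequate basophilic replicate 1 or 3, adequate proerythroblast replicate 1, deficient basophilic replicate 1 or deficient proerythroblast replicate 3. Without replicate 2 of both basophilic groups 13 of 56 were called, where 3.48% of all tested genes were.

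With stage, 23 of 56 rose and 15 fell on the adequate diet, against 54.2% of all tested genes, and 12 rose and 14 fell on the deficient diet, against 56.0%. On the adequate diet the smallest adjusted p-values belonged to Slc4a1 (1.75), the chloride cotransporter gene Slc12a2 (-1.59), the glutamine transporter gene Slc38a1 (-2.09) and Slc39a10 (-2.02). On the deficient diet they belonged to Slc38a1 (-1.57), the aquaglyceroporin gene Aqp9 (adjusted p = 6.07e-04, higher), Slc12a2 (-0.72) and the large neutral amino acid transporter gene Slc7a5 (1.04). The deficient count of 26 was 17 without deficient proerythroblast replicate 1 (34% of all tested genes were called) and 15 without replicate 3 (24.6%). By role, 8 of 14 further blood group and surface genes rose with stage on the adequate diet and 2 fell, as did 6 and 1 of 11 amino acid transporters and 2 and 5 of 11 anion, urea, ion and water transporters, where 28.7% of all tested genes rose. In the same roles 4 rose and 2 fell, 3 rose and 3 fell, and 3 rose and 4 fell on the deficient diet, where 31.1% of all tested genes rose, a share near that of each role. Whether these counts differ between the diets was not tested.

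Some marker genes of cell type and maturity also differed between the diets in proerythroblasts. Over all tested genes 1.27% were called higher and 2.76% lower for the diet in proerythroblasts. For the stage, 28.7% were called higher and 25.6% lower on the adequate diet, and 31.1% and 24.9% on the deficient diet. Of 5 tested progenitor genes 4 fell on the deficient diet in proerythroblasts, among them Kit (-2.18), the stem cell factor receptor. With stage, 4 of these 5 fell on the adequate diet, among them Kit (-2.76), and 3 fell on the deficient diet. The summed level was taken over the 6 progenitor genes with a feature, tested or not. Its log2 was 11.10 to 11.24 in adequate and 9.61 to 9.85 in deficient proerythroblasts. It was 8.77 to 8.98 and 8.81 to 9.26 in basophilic erythroblasts on the adequate and deficient diet. Of 8 tested erythroid markers, a list that itself holds Rhag and Slc4a1, 3 rose, among them Alas2 (1.67), and the summed level was 13.36 to 13.68 and 14.38 to 14.44. In basophilic erythroblasts it was 14.78 to 14.97 and 14.72 to 14.95 on the adequate and deficient diet. Of the 8 erythroid markers, 6 rose with stage on the adequate diet, among them Alas2 (2.73), and 2 rose on the deficient diet. Neutrophil markers reached 10.79 to 12.57 and 11.28 to 12.40 in adequate and deficient proerythroblasts, and 9.93 to 10.26 and 10.23 to 10.60 in basophilic erythroblasts. Of 13 tested, 1 was called for the diet in proerythroblasts, and with stage 1 rose and 7 fell on the adequate diet and 6 fell on the deficient diet. Macrophage markers reached 9.50 to 11.10 and 9.76 to 10.75, in adequate and deficient proerythroblasts, with 0 of 13 called for the diet there, and 2 of 13 rose with stage on each diet. For the diet in proerythroblasts 1 of 7 megakaryocyte markers was called, and 0 of 7 B cell, 0 of 7 T or NK cell and 0 of 5 endothelial or stromal markers. With stage, 3 of 5 endothelial or stromal markers rose on the adequate and 4 of 5 on the deficient diet. Of 7 megakaryocyte markers 2 rose and 1 fell on the adequate and 3 rose on the deficient diet, and no B cell, T or NK cell marker was called for the stage. The part of these differences in the results on the 9 genes was not tested. Selenow, a selenoprotein gene that answers to selenium supply, fell by 1.29 (adjusted p = 0.00129) in deficient proerythroblasts and had -0.29 (adjusted p = 0.868) in basophilic erythroblasts. It was also lower with stage on the adequate diet (-0.93, adjusted p = 7.74e-04), and had 0.06 (adjusted p = 0.737) on the deficient diet.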

How the data were processed

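The deposited values are log2 expression per feature of an Affymetrix whole-transcript array. They were computed in Affymetrix Expression Console, per the submitters' processing notes, after amplification of 5 ng of total RNA with a low-input kit, per the labels' protocols. Background correction, normalization and the version are not given in the sources used here. The log2 values were used as deposited. Of 72688 features, 31258 named 1 gene after symbols were updated through RefSeq. The brightest feature stood for a gene with several. Genes were tested if 3 or more arrays lay above 5.30, the overall median value.

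A mean per group was fitted to all 12 arrays with limma 3.58.1 (R 4.3.3; eBayes defaults), with Benjamini-Hochberg adjustment over 20128 genes. The fit was also run on data simulated with independent noise in each array. Such data do not hold the correlated deviations of the real arrays, so how far calls depend on those was not tested there. Precision is limited by 3 arrays per group. The members, lists and arrays doubted were chosen with earlier results of these data known. Named genes are the 9 members, up to 4 of the wider list with the smallest adjusted p per comparison, 3 genes most like each member, and Selenow, Kit and Alas2; Gypc, and Slc39a10 over both stages, were named after their values were seen.

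Same-numbered arrays of the 2 diets had correlated deviations from their group means (r = 0.46, 0.18 and 0.52 in proerythroblasts; 0.72, 0.78 and 0.54 in basophilic erythroblasts), so a block within each stage is a paired fit. Between stages r ran down to -0.17, and the numbers were not taken as pairs. Alternatives were no or a stricter filter (5.77), quantile normalization, median centring, the replicate number as a block, features averaged per gene, the arrays of the contrast alone and leaving out each array.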

Additional observations from a re-analysis of the deposited data

Results flagged for a closer look

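The diet by stage interaction was past the threshold for Slc6a9, with a log2 value of -1.55 (diet difference of 0.16 in basophilic erythroblasts against 1.70 in proerythroblasts), and it was flagged because the difference between the stages itself was tested. The interaction of Slc4a1, of the wider list, was flagged for the same reason, with -1.37 (adjusted p = 0.0130 in limma).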

How the results depend on the processing

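No result on the 9 genes that was past the threshold reversed under any alternative. Counts of the 9 genes past the threshold (diet in proerythroblasts 1, diet in basophilic erythroblasts 0, diet over both stages 1, stage on the adequate diet 5, stage on the deficient diet 0, interaction 1) changed as follows. Without the basophilic arrays that stood apart they were 4 for the diet in proerythroblasts, 2 over both stages, 8 and 6 for the stage on the adequate and deficient diet. In that fit 16.3%, 11.4%, 68.2% and 58.7% of all tested genes were called, in the same order. With the replicate block within each stage they were 2 in proerythroblasts and 2 over both stages (11.1% and 10.2% of all tested genes). The replicate block across all groups gave 1 for the stage on the deficient diet (62.7% of all tested genes), and these blocks ended no call on the 9 genes. Quantile normalization gave 2 for the diet in proerythroblasts (3.96% of all tested genes) and 4 for the stage on the deficient diet (40.8%). In proerythroblasts the stricter filter gave 2 (4.86%) and the arrays of the contrast alone 3 (12%). For the interaction no filter, the mean of the features and the dimmer Slc6a9 feature each gave 0; without a filter more genes are tested, and the cause of the others was not tested. Leaving out 1 array gave 1 to 2, 0 to 0, 1 to 2, 4 to 6, 0 to 2 and 0 to 1 in the order above. Of all tested genes these fits called 1.56% to 8.97%, 0% to 1.44%, 1.22% to 7.47%, 27.9% to 71.2%, 24.6% to 61.7% and 0.0596% to 1.4%.

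Of the wider list, the replicate block within each stage gave 24 calls in proerythroblasts, 2 in basophilic erythroblasts, 19 over both stages and 11 for the interaction. Of all tested genes it called 11.1%, 1.45%, 10.2% and 2.93%. Without the basophilic arrays that stood apart the counts were 22, 3, 18 and 13, where 16.3%, 2.09%, 11.4% and 3.48% of all tested genes were called. The arrays of the contrast alone gave 19 for the diet in proerythroblasts (12%) and 15 for the stage on the deficient diet (14.5%). Quantile normalization gave 8 for the diet over both stages (3.28%). Leaving out 1 array gave 3 to 16, 0 to 1, 2 to 14, 30 to 42, 15 to 28 and 0 to 3.

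Differences not past the threshold changed sign. Without the basophilic arrays that stood apart Aqp1 was 0.05 for the diet over both stages and 0.14 for the stage on the deficient diet, Slc2a1 -0.04 for the stage on the adequate diet, and Xk 0.14 for the stage on the deficient diet, where quantile normalization gave 0.19. Leaving out 1 array gave, for the diet in proerythroblasts, -0.03 to 0.16 for Ermap, and in basophilic erythroblasts -0.09 to 0.15 for Rhag, -0.32 to 0.12 for Kel, -0.13 to 0.42 for Xk, -0.25 to 0.08 for Cd47 and -0.49 to 0.09 for Ermap. Over both stages it gave -0.05 to 0.13 for Rhd, -0.20 to 0.09 for Ermap and -0.22 to 0.18 for Aqp1. For the stage it gave -0.12 to 0.20 for Slc2a1 on the adequate diet, and on the deficient diet -0.38 to 0.14 for Xk, -0.11 to 0.40 for Ermap, -0.67 to 0.14 for Aqp1 and -0.04 to 0.24 for Slc2a1. The interaction of Slc2a1 ran from -0.13 to 0.24. Signal over background was not measured per array.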
